A study of Mus musculus with 37 samples.

Results

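Peg12, Ndn and the genes around Snrpn form an imprinted cluster on mouse chromosome 7, the region that matches the Prader-Willi and Angelman syndrome region of humans. Its 6 members examined here, Peg12, Ndn, Magel2, Mkrn3, Snrpn and Ube3a, were taken by gene symbol from a raw count table of 35542 genes, in which each has 1 row. They were chosen from values of these same embryos: in earlier results of the comparison between genotypes over all stages, Peg12 stood out among all genes and Ndn among imprinted genes, and the others are their neighbours. Differences between genotypes are therefore given below as a description, and nothing is read from whether a member passed a threshold there. Somite number, sex and the variation between embryos of one group were not used in the choice and were tested.

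In this cluster the paternal copies of Snrpn, Ndn, Magel2, Mkrn3 and Peg12 are expressed, while the maternal copies are silenced. An imprinting centre at the Snrpn promoter, methylated on the maternal copy, sets this pattern for the whole region. Ube3a is transcribed from both copies in most tissues, and in neurons its paternal copy is silenced by Snhg14, a long antisense RNA that starts in the Snrpn region. SMCHD1 is a chromatin-associated repressor needed for silencing, including at imprinted genes and on the inactive X chromosome.

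Expression was measured by RNA-seq in the tailbud, the tissue that lays down the posterior body axis, with 1 library for each of 37 mouse embryos at embryonic day 8 to 8.5. All embryos were F1 hybrids of a C57BL/6 background mother and a Castaneus father, so the paternal copies of the cluster were Castaneus in both groups. The 21 Smchd1wt embryos (Smchd1 fl/+ in the labels) came from Smchd1 fl/fl mothers without the Cre transgene. The 16 Smchd1matΔ embryos (Smchd1 del/+ in the labels) came from Smchd1 del/fl mothers carrying MMTV-Cre, which deletes the gene in the oocyte, and had an intact paternal allele. They therefore lacked both the oocyte supply and the maternal allele, and these cannot be told apart. The embryos may themselves carry the Cre transgene, which the labels do not give. There were 4 Smchd1wt and 4 Smchd1matΔ embryos at 6 somites, 4 and 3 at 7, 3 and 2 at 8, 3 and 2 at 9, 4 and 3 at 10, and 3 and 2 at 11 somites. Somites are the paired mesodermal blocks whose number dates an embryo.

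Levels are in counts per 1e6 counts (CPM), scaled with the TMM method. Libraries held between 0.916 and 80.6 times 1e6 counts, and members had from 4 counts (Mkrn3) to 14132 counts (Ube3a) in a library. Smchd1 was at 149 ± 22.2 CPM (SD, n = 21) in Smchd1wt and 89 ± 13.3 CPM (SD, n = 16) in Smchd1matΔ embryos, the direction the labels give. Summed CPM of 9 tailbud markers, all detected, was 659 to 1610 in Smchd1wt and 964 to 1410 in Smchd1matΔ embryos. Blood and gut or yolk sac RNA varied widely, with 6 erythroid markers summing to 12.8 to 3880 and 9.98 to 4180 CPM and 6 endoderm markers to 3.86 to 3540 and 9.4 to 2670 CPM in the respective genotypes. The 6 neural markers summed to 41.7 to 78.1 and 53.2 to 86 CPM, with Elavl3 and Dcx under 1 CPM in every library, while Tubb3, Stmn2, Elavl4 and Sox1 had enough counts to be tested. The 5 somite markers summed to 8.42 to 26.1 and 3.31 to 164 CPM, with Pax1 under 1 CPM in every library. In such bulk tissue, fewer cells that express a gene and less RNA per cell cannot be told apart.

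The members lie in 2 groups along chromosome 7 (GRCm38). Ube3a, on the plus strand at 59228750 to 59311536, and Snrpn, on the minus strand at 59982495 to 60140219, are neighbours among the members. Ndn at 62346569 to 62350262, Magel2 at 62377010 to 62381640, Mkrn3 at 62417593 to 62420139 and Peg12 at 62461871 to 62464510 follow one another further along. The last 4 are each annotated with 1 exon (GENCODE M21) that overlaps no other gene's exon, and their counts are unambiguous in that respect. Snrpn has 12 merged exons with 2159 bases, of which 27.3% also belong to Gm38393, and these take in all exon bases of Snurf, the upstream reading frame of the same transcript. Ube3a has 16 merged exons with 20626 bases, of which 27.3% are covered by genes on the other strand. One of these, Gm44560, had a median of 1.05 times (range 0.643 to 1.27 over 37 embryos) the counts that the Ube3a level over the shared bases would give without strand information. The same ratio was 0.422 (0.148 to 1.1) for 9330162G02Rik and 3.51 (2.85 to 6.82) for Snhg14, which share 5.8% and 6.91% of their own exon bases with Ube3a, against 65% for Gm44560. Ube3a values are uncertain because the sources do not say whether these libraries carry strand information. The paper names kits with and without it for its RNA-seq as a whole. Snrpn values are uncertain because its shared bases are mainly on the same strand, where strand information cannot separate the genes.

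The start regions of the members with the results below are shown as 300 bases from 250 before to 50 after the RefSeq start, GRCm38.p6, minus or plus strand as named, with every CG dinucleotide, the site of DNA methylation, in capitals.
Peg12, minus strand, chr7:62464461-62464760: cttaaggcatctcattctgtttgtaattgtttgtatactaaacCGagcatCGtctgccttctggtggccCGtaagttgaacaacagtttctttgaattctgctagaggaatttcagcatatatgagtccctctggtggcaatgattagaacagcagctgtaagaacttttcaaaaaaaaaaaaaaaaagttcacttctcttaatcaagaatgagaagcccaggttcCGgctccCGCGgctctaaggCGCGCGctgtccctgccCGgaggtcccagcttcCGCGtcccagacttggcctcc
Ndn, plus strand, chr7:62348027-62348326: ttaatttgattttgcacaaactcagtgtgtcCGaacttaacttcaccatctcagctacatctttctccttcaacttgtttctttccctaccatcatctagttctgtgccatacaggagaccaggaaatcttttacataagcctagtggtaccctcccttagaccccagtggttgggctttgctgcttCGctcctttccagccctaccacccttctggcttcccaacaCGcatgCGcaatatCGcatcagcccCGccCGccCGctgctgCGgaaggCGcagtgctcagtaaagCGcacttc
Snrpn, minus strand, chr7:60005150-60005449, a start that RefSeq also gives for Snurf: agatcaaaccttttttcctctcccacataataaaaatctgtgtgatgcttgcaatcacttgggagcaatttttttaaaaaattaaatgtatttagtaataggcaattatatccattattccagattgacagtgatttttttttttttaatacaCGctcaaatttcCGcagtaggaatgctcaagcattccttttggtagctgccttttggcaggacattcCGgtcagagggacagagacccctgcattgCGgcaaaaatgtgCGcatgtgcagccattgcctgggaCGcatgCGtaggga
The Peg12 window holds 12 CG dinucleotides and the Ndn window 11, as counted on the printed strand, where CG reads the same on the other strand. The Snrpn window holds 7, equal to the median of 7 over 32851 promoters in the RefSeq table, and 39.6% of those promoters hold at least as many as Peg12. Of the other members, the Ube3a window holds 29, Mkrn3 15 and Magel2 10, and the 3 more distant annotated Snrpn starts hold 2, 3 and 4. Methylation was not measured here.

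Levels per length of exon differed widely between members. In RPKM (counts per kilobase of merged exon and 1e6 counts), Snrpn, which encodes the spliceosomal protein SmN, was highest with 45.8 ± 6.22 (SD, n = 37). Ndn, which encodes the MAGE family protein necdin, followed with 23.5 ± 3.32. Ube3a, an E3 ubiquitin ligase, was at 10.3 ± 1.9 and Peg12, a FRAT family protein that binds the kinase GSK3, at 10.2 ± 2.48, and the order of this pair was open, with Ube3a higher in 18 of 37 embryos. Mkrn3, a makorin RING finger protein, was at 2.98 ± 0.856, and Magel2, another MAGE family protein, was lowest with 1.22 ± 0.387. Snrpn exceeded Ndn, Ndn exceeded Ube3a, and Peg12 exceeded Mkrn3 in 37 of 37 embryos, and Mkrn3 exceeded Magel2 in 36 of 37. The order of Ndn rests on the annotated exon length, which in GENCODE starts upstream of the RefSeq start used above. The place of Ube3a rests on its 20626 merged exon bases, taken over 18 annotated transcripts. In CPM, without exon length, Ube3a had the highest mean. It was at 219 CPM against 97.8 for Snrpn and 80.9 for Ndn in Smchd1wt embryos, and at 202 against 100 and 94.3 CPM in Smchd1matΔ embryos.

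**Figure D1:**
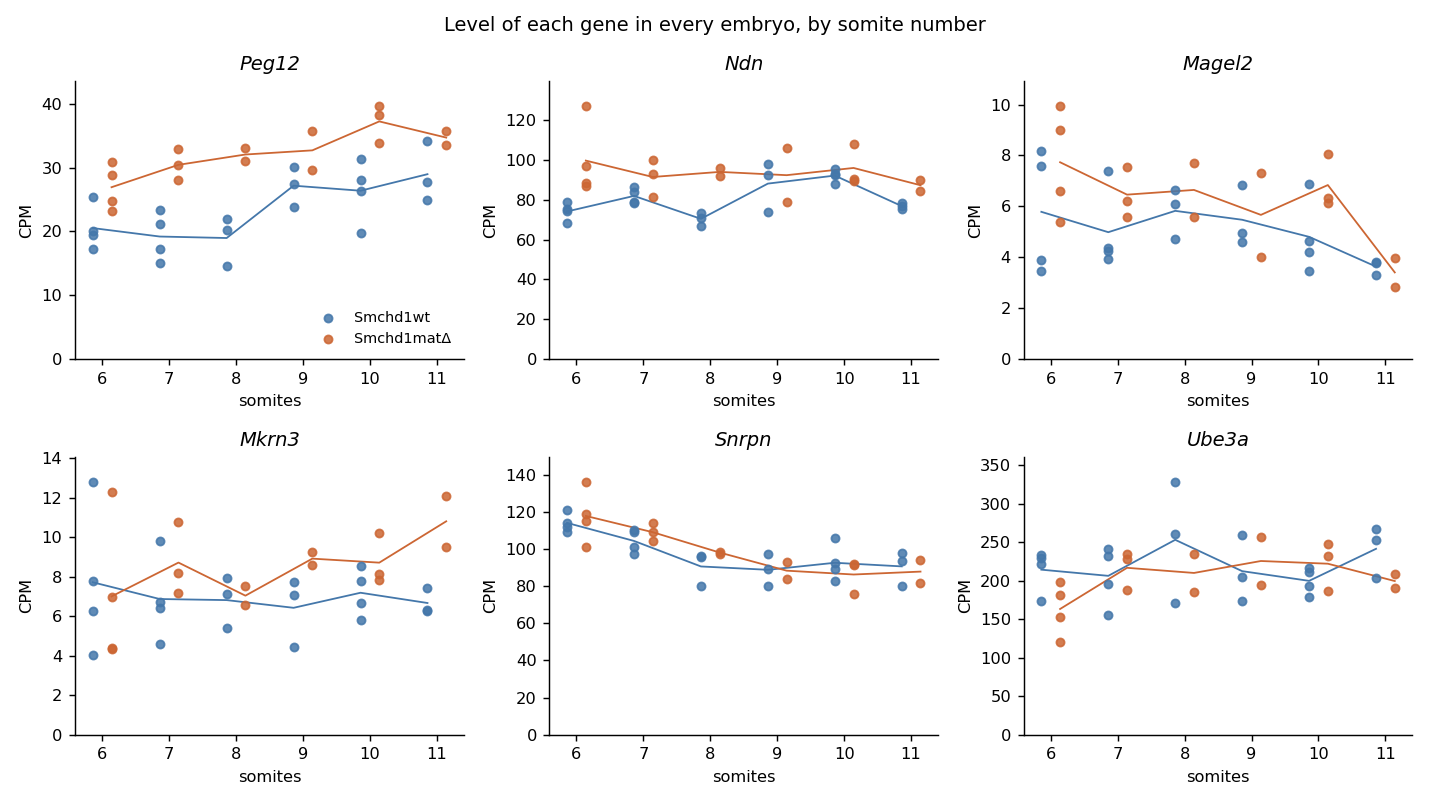
Level of each member in CPM (y axis, from 0) against somite number (x axis), with 1 point for each embryo and lines through the group means. Smchd1matΔ embryos lie above Smchd1wt embryos for Peg12 at every stage mean, the Snrpn means are lower at 11 than at 6 somites in both genotypes, and Ube3a values of the genotypes overlap at every stage.

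Peg12 was higher in Smchd1matΔ than in Smchd1wt embryos at all 6 stage means. At 6 somites Smchd1wt embryos had 17.2, 19.5, 20 and 25.4 CPM and Smchd1matΔ embryos 24.7, 28.9, 23.2 and 30.9 CPM. At 7 somites the values were 15, 23.4, 21.1 and 17.3 CPM against 30.4, 28 and 32.9 CPM, and at 8 somites 14.6, 22 and 20.3 CPM against 33 and 31.1 CPM. The genotypes overlapped at 6 somites and did not overlap at 7 and 8. At 9 somites Smchd1wt embryos had 30.1, 23.9 and 27.5 CPM and Smchd1matΔ embryos 35.8 and 29.6 CPM. At 10 somites the values were 19.8, 28.1, 26.3 and 31.3 CPM against 33.8, 38.3 and 39.6 CPM, and at 11 somites 27.8, 34.2 and 24.9 CPM against 35.8 and 33.6 CPM. The groups were again separate at 10 somites alone among these later stages, and each of the 16 Smchd1matΔ embryos lay above the Smchd1wt mean of its own stage. Fitted over all stages with stage and sex as covariates, Peg12 was 1.397-fold higher in Smchd1matΔ embryos (log2 0.48, SE 0.072). The difference was smallest on the log2 scale at 9 and 11 somites (0.27 at both) and greatest at 8 somites (0.78).

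Ndn was 1.161-fold higher in Smchd1matΔ embryos over all stages (log2 0.21, SE 0.051). At 6 somites Smchd1wt embryos had 79, 68.2, 74.3 and 75.2 CPM and Smchd1matΔ embryos 96.8, 86.8, 127 and 88.3 CPM. The value of 127 CPM belongs to the shallowest library, where it stands for 115 counts, and the groups were separate without it too. At 7 somites the values were 78.8, 86.7, 83.9 and 78.5 CPM against 81.6, 93 and 99.9 CPM, and at 8 somites 70.7, 67.1 and 73.6 CPM against 96.1 and 92 CPM. At 9 somites they were 98.2, 74 and 92.3 CPM against 106 and 78.8 CPM, and at 10 somites 92.8, 88.2, 92.5 and 95.3 CPM against 108, 90.5 and 89.6 CPM. At 11 somites Smchd1wt embryos had 78.4, 75.2 and 77 CPM and Smchd1matΔ embryos 90.1 and 84.6 CPM. The genotypes were separate at 6, 8 and 11 somites and overlapped at 7, 9 and 10, where the log2 difference was 0.16, 0.06 and 0.05. Without the shallowest library of each genotype the log2 difference over all stages was 0.19.

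Magel2 and Mkrn3, which lie between Ndn and Peg12, were also higher on average but varied more between embryos. Magel2 ranged from 3.32 to 8.18 CPM (median 4.6) in Smchd1wt and from 2.85 to 9.93 CPM (median 6.27) in Smchd1matΔ embryos, and the groups overlapped at each stage. Its log2 difference was 0.28 (SE 0.13), with 13 of 16 Smchd1matΔ embryos above the Smchd1wt mean of their stage, but at 11 somites its mean was lower, at 3.41 against 3.63 CPM. Mkrn3 ranged from 4.04 to 12.8 CPM (median 6.7) in Smchd1wt and from 4.35 to 12.3 CPM (median 8.15) in Smchd1matΔ embryos. Its log2 difference was 0.29 (SE 0.13), with 12 of 16 embryos above, as for Ndn. At 6 somites its mean was lower, at 7.01 CPM in Smchd1matΔ against 7.73 CPM in Smchd1wt embryos. At 11 somites the Mkrn3 values were 6.33, 6.28 and 7.41 CPM in Smchd1wt and 12.1 and 9.52 CPM in Smchd1matΔ embryos. The groups were separate there and at 9 somites, with 3 against 2 embryos at each of these stages. How many of all genes are separate at as many stages was not counted, and nothing is read from this.

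Snrpn and Ube3a, at the other end of the region, were not higher in this way. Snrpn ranged from 80.1 to 121 CPM (median 97) in Smchd1wt and from 75.7 to 136 CPM (median 98) in Smchd1matΔ embryos, with a log2 difference of 0.01 (SE 0.043) and 9 of 16 embryos above their stage mean. Its genotypes overlapped at every stage except 8 somites, where 97.5 and 98.6 CPM in Smchd1matΔ embryos lay above at most 96 CPM in Smchd1wt embryos. Ube3a ranged from 156 to 328 CPM (median 216) in Smchd1wt and from 120 to 257 CPM (median 196) in Smchd1matΔ embryos, with a log2 difference of -0.11 (SE 0.084) and 5 of 16 embryos above. The lowest Ube3a values, 120 and 153 CPM, came from the Smchd1matΔ libraries at 6 somites that were richest in ribosomal RNA counts (2.77% and 1.82% of all counts). Without both libraries the Ube3a log2 difference over all stages was -0.05 (SE 0.082).

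**Figure D2:**
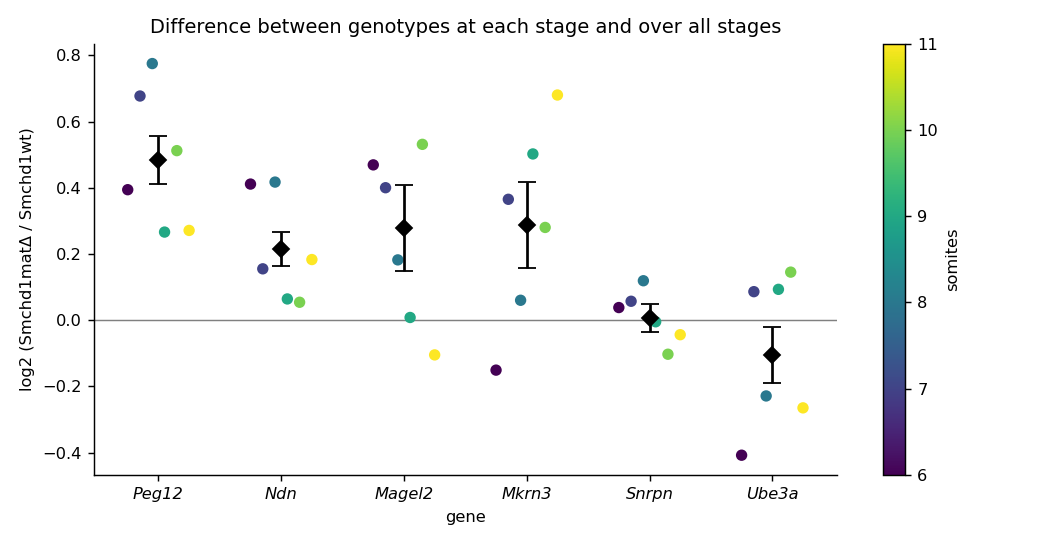
Difference between genotypes on the log2 scale (y axis) for each member (x axis). Coloured points are the differences of stage means from 6 to 11 somites, and black diamonds with bars are the fit over all stages with its SE, which is 0.48 for Peg12 and 0.01 for Snrpn.

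Across all genes, 0.0136% (2 of 14733 tested) passed an adjusted p of 0.05 between genotypes over all stages by edgeR's quasi-likelihood test, and 1 of the 6 members, Peg12, was among them. Genes whose Smchd1matΔ embryos lay wholly above the Smchd1wt embryos at 3 or more of the 6 stages made up 0.434% (64 of 14733), and Peg12 and Ndn were among them with 3 stages each. Since the members were chosen on this contrast, nothing is read from either count. The median log2 difference was 0.25 over the 6 members and 0.00 over all genes tested, and for the same reason nothing is read from this. With erythroid, endoderm and neural marker levels as covariates the log2 difference was 0.46 for Peg12, 0.23 for Ndn, 0.29 for Magel2 and 0.20 for Mkrn3. Leaving out both libraries richest in ribosomal RNA gave 0.49 for Peg12 and 0.21 for Ndn.

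Other transcripts of the region were compared in the same fit. Of 10 listed genes with a row, 4 had enough counts to be tested and none passed the threshold. Snhg14, the antisense RNA, was at 72.7 ± 18.4 CPM (SD, n = 21) in Smchd1wt and 61.7 ± 14.6 CPM (SD, n = 16) in Smchd1matΔ embryos. Its counted row, at 59307924 to 59975759, overlaps only the end of Ube3a, so these values mostly describe the part outside Ube3a. Snurf was at 24.6 ± 3.94 and 25.4 ± 4.28 CPM and Gm38393 at 59.1 ± 11 and 57.7 ± 6.76 CPM, both from the Snrpn transcription unit. Atp10a, a phospholipid-transporting ATPase gene beyond Ube3a, was at 11.3 ± 2.27 and 10.3 ± 2.41 CPM. In the order named, their log2 differences were -0.23 (SE 0.12), 0.02 (SE 0.063), -0.04 (SE 0.069) and -0.10 (SE 0.11). The remaining listed genes, A330076H08Rik, A230057D06Rik, A230006K03Rik, B230209E15Rik, Gm44829 and Mirt2 (annotated on chromosome 15), had at most 9 counts in any library.

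Among 16 tested genes flanking the cluster, none passed and the median log2 difference was 0.02. The greatest values were 0.20 for Apba2, 0.20 for Gabra5, 0.15 for Mcee and 0.14 for Herc2. Paralogues of the members elsewhere in the genome, 13 tested, had a median of 0.05 with none past the threshold. The FRAT genes Frat2 and Frat1 led them with 0.21 (SE 0.097) and 0.18 (SE 0.15). Imprinted genes of other regions showed no common direction, with a median of 0.00 over 22 paternally expressed genes (11 higher, 11 lower) and -0.02 over 20 maternally expressed genes (9 higher, 11 lower), and none of either list passed. The paternally expressed examples with the greatest differences were Sfmbt2 (0.37), Usp29 (-0.22), Kcnq1ot1 (0.19) and Igf2 (-0.15), and the maternally expressed ones Ascl2 (0.57), Zim1 (-0.29), Trappc9 (0.15) and Copg2 (-0.14).

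To determine how the cluster changes as the axis extends, levels were fitted against somite number within each genotype, with sex as a covariate. In Smchd1wt embryos 2 of 6 members passed an adjusted p of 0.05, against 6.61% of 15667 genes tested. Peg12 rose by a log2 of 0.12 per somite (SE 0.032, adjusted p = 0.0196, edgeR), from a mean of 20.5 ± 3.47 CPM (SD, n = 4) at 6 somites to 29 ± 4.76 CPM (SD, n = 3) at 11 somites. Snrpn fell by 0.07 on the log2 scale per somite (log2 -0.07, SE 0.017, adjusted p = 0.0233, edgeR). The slopes of the others in log2 per somite were 0.04 (SE 0.02) for Ndn, -0.09 (SE 0.052) for Magel2, -0.03 (SE 0.047) for Mkrn3 and 0.01 (SE 0.032) for Ube3a, with adjusted p-values from 0.305 to 0.879 by edgeR. Leaving out the Smchd1wt replicate 2 at 11 somites ended the Peg12 call (log2 0.11, adjusted p = 0.0559, edgeR), and leaving out replicate 1 or 2 at 6 somites or replicate 3 at 11 somites ended the Snrpn call (adjusted p = 0.0553, 0.054 and 0.0716, edgeR).

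The decline of Snrpn is visible in the single embryos. In Smchd1wt embryos it was at 112, 121, 114 and 109 CPM at 6 somites and at 109, 101, 110 and 97.2 CPM at 7 somites. At 8 somites the values were 96, 80.3 and 95.4 CPM, at 9 somites 89.2, 97 and 80.1 CPM, at 10 somites 106, 82.9, 92.2 and 89.1 CPM and at 11 somites 97.8, 93.7 and 80.3 CPM. All 4 embryos at 6 somites exceeded every embryo from 8 somites on. In Smchd1matΔ embryos it was at 115, 119, 136 and 101 CPM at 6 somites, 104, 114 and 109 CPM at 7 and 97.5 and 98.6 CPM at 8 somites. The later values were 92.7 and 83.9 CPM at 9 somites, 91.3, 75.7 and 91.7 CPM at 10 and 94 and 81.6 CPM at 11 somites. All embryos at 6 somites thus again exceeded every embryo from 8 somites on. The value of 136 CPM came from the shallowest library, where it stands for 123 counts. All embryos with 6 somites were female, and sex is not taken into account in these single values. How many of all genes are separate between these stages was not counted, and nothing is read from the separation.

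In Smchd1matΔ embryos 1 of 6 members passed, against 2.95% of 16222 genes tested. Snrpn fell by 0.09 on the log2 scale per somite (log2 -0.09, SE 0.02, adjusted p = 0.0116, edgeR). The Snrpn call ended without replicate 2 at 11 somites (adjusted p = 0.0526, edgeR) and in female embryos alone (adjusted p = 0.0683, edgeR). Peg12 had a slope of 0.09 (SE 0.025, adjusted p = 0.0719, edgeR), with means of 26.9 ± 3.6 CPM (SD, n = 4) at 6 somites and 34.7 ± 1.54 CPM (SD, n = 2) at 11 somites. Ndn had -0.01 (SE 0.025), Magel2 -0.12 (SE 0.061), Mkrn3 0.08 (SE 0.055) and Ube3a 0.07 (SE 0.036), with adjusted p-values from 0.346 to 0.907 by edgeR. The other Snrpn unit transcripts also had negative slopes that did not pass, with log2 per somite of -0.07 (SE 0.025) in Smchd1wt and -0.10 (SE 0.028) in Smchd1matΔ embryos for Snurf and -0.06 (SE 0.028) and -0.04 (SE 0.024) for Gm38393. Snhg14 had 0.00 (SE 0.044) and 0.09 (SE 0.043).

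Marker RNA of other tissues changed with somite number as well. In Smchd1wt embryos all 6 erythroid markers had positive slopes (median log2 0.56 per somite, 1 past the threshold, Hbb-y) and all 6 endoderm markers negative ones (median -0.65, 2 past the threshold, Apob and Ttr). Of the neural markers Sox1 rose and Tubb3 fell there. In Smchd1matΔ embryos the 6 erythroid markers had a median slope of 0.46 (1 past the threshold) and the 6 endoderm markers one of -0.25 (none past). With erythroid, endoderm and neural levels as covariates, a fit added after the data were seen, the Peg12 slope in Smchd1wt embryos was 0.02 (SE 0.042, adjusted p = 0.935, edgeR) and the Snrpn slope -0.06 (SE 0.03, adjusted p = 0.642, edgeR), while 2 genes in all passed. In Smchd1matΔ embryos the same fit gave 0.07 (SE 0.041) for Peg12 and -0.08 (SE 0.033, adjusted p = 0.898, edgeR) for Snrpn, with 19 genes passing in all. Somite number and the makeup of the dissected tissue cannot be told apart in the slopes of either gene.

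**Figure D3:**
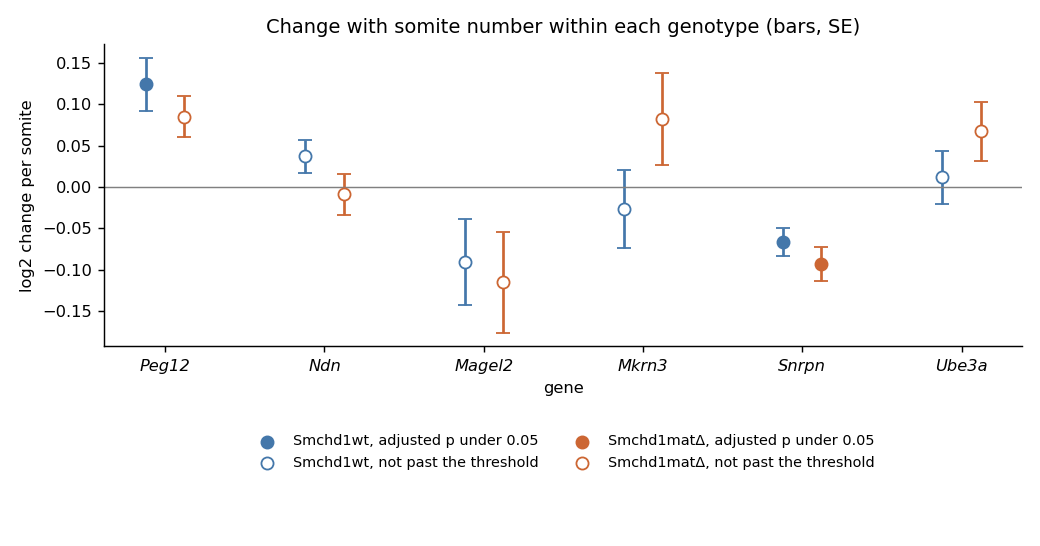
Slope on somite number in log2 per somite (y axis) for each member (x axis) in Smchd1wt (blue) and Smchd1matΔ (orange) embryos, with bars for the SE. Filled points passed an adjusted p of 0.05, which are Peg12 in Smchd1wt embryos and Snrpn in both genotypes.

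Slopes were then compared between genotypes by an interaction term. No member passed, with an adjusted p of 1 for each, and 0% of 14733 genes passed (540 at an unadjusted p under 0.05). The difference in slope, Smchd1matΔ minus Smchd1wt in log2 per somite, was -0.04 (SE 0.041) for Peg12, -0.05 (SE 0.031) for Ndn, -0.04 (SE 0.079) for Magel2, 0.10 (SE 0.071) for Mkrn3, -0.03 (SE 0.025) for Snrpn and 0.05 (SE 0.049) for Ube3a. Peg12 rising past the threshold in Smchd1wt embryos alone is therefore not shown to be a difference between genotypes. Between the sexes no member passed either, against 0.217% of 14733 genes (32), with log2 differences, male minus female, from -0.09 (SE 0.084) for Peg12 to 0.03 (SE 0.051) for Snrpn. All embryos with 6 somites, and the Smchd1matΔ embryos with 8 or 9 somites, were female.

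Genes flanking the cluster and paralogues gave a comparison for the slopes. Among the flanking genes, Apba2 fell in Smchd1wt embryos (log2 -0.17 per somite, SE 0.039) and in Smchd1matΔ embryos (-0.25, SE 0.051). Maged2, a MAGE family relative of Ndn and Magel2 on chromosome X, was the only one of 13 paralogues to pass and rose in both genotypes, by a log2 of 0.09 (SE 0.019) and 0.07 (SE 0.015) per somite. Of 22 paternally expressed imprinted genes elsewhere, 5 passed in Smchd1wt embryos, 2 rising, Plagl1 (0.25) and Igf2 (0.12), and 3 falling, of which Sfmbt2 (-0.33) and Peg13 (-0.13) had the greatest slopes. In Smchd1matΔ embryos 3 of 23 passed, with Plagl1 (0.29) and Igf2 (0.14) rising and Peg13 (-0.16) falling. Of the maternally expressed imprinted genes, 2 of 22 passed in Smchd1wt embryos, both rising, and none of 21 in Smchd1matΔ embryos.

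To ask whether members vary together between embryos, the mean of each genotype and stage group was subtracted from log2 CPM and the 15 pairs of members were correlated over the 37 embryos. No pair passed after adjustment over the 15 pairs, with the lowest adjusted permutation p at 0.353. Peg12 and Ndn, the members with the clearest difference between genotypes, had a Pearson r of 0.018 (permutation p = 0.922, adjusted 0.96) and a Spearman rho of 0.104 (permutation p = 0.591, adjusted 0.988). Without the 2 embryos farthest from the Peg12 median r was 0.029. It was 0.26 within Smchd1wt and -0.30 within Smchd1matΔ embryos, and 0.34 with sex, depth and marker levels removed, none past the adjusted threshold.

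The strongest correlation was negative, between Ndn and Mkrn3, with r = -0.445 (permutation p = 0.0423, adjusted 0.353) and rho = -0.355 (permutation p = 0.0753, adjusted 0.474). Without the 2 embryos farthest from the Ndn median it was -0.358. Mkrn3 and Ube3a had r = 0.383 (permutation p = 0.0599, adjusted 0.353) and rho = 0.358 (permutation p = 0.0731, adjusted 0.474), and r = 0.496 without the 2 embryos farthest in Mkrn3. Peg12 and Snrpn had r = -0.363 (permutation p = 0.0706, adjusted 0.353) and rho = -0.299 (permutation p = 0.13, adjusted 0.474), and r = -0.241 without the 2 farthest in Peg12. Ndn and Snrpn had r = 0.338 (permutation p = 0.13, adjusted 0.487) and rho = 0.285 (permutation p = 0.158, adjusted 0.474). Their r was -0.14 within Smchd1wt and 0.69 within Smchd1matΔ embryos, neither past the adjusted threshold (permutation, adjusted p = 0.785 and 0.525). A difference between genotypes in this r was not tested. Without the shallowest library of each genotype the pooled r was 0.168. The shallowest Smchd1matΔ library held the highest value of both genes, 127 CPM for Ndn and 136 CPM for Snrpn. The pairs not named had r between -0.286 and 0.281. Among these, Peg12 with Mkrn3 (r = 0.065) was at -0.15 within Smchd1wt and 0.63 within Smchd1matΔ embryos, neither past the adjusted threshold (permutation, adjusted p = 0.785 and 0.677).

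**Figure D4:**
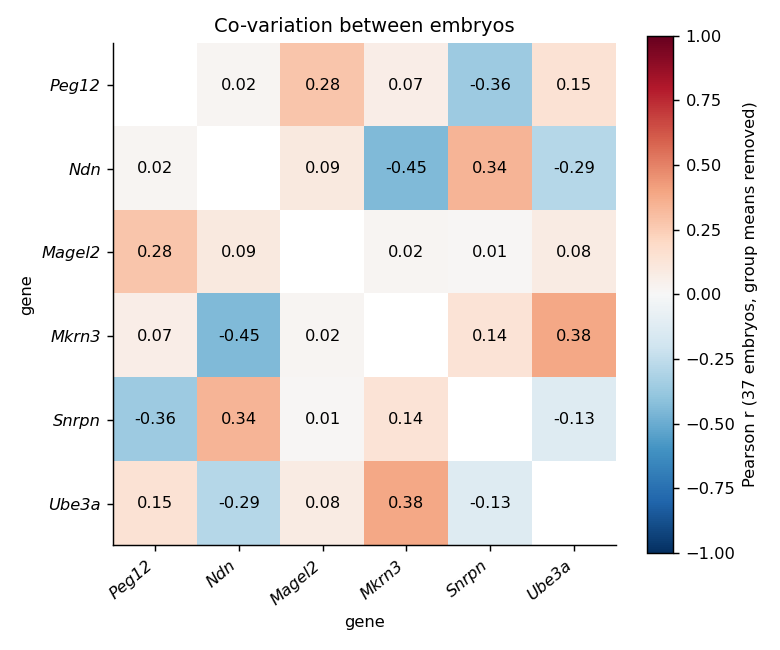
Pearson r between each pair of members over 37 embryos, after removing genotype and stage group means, with the value written in each cell and colour from -1 (blue) to 1 (red). Values lie between -0.445 (Ndn and Mkrn3) and 0.383 (Mkrn3 and Ube3a), and the diagonal is left empty.

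The overlapping transcripts compared had higher r with Snrpn and Ube3a than any member did. On the same scale, Snrpn had r = 0.695 with Snurf and 0.656 with Gm38393, with which it shares exon bases, and Ube3a had r = 0.87 with Gm44560 and 0.692 with Snhg14, which overlap it on the other strand. These are descriptions of counts that can share reads. Peg12 had r = 0.447 with the erythroid marker level and 0.333 with the neural level, Mkrn3 0.539 and Ube3a 0.508 with the neural level, and Snrpn 0.454 with the ribosomal RNA share, and the part of these in the pairs above was not tested separately. Across all 14732 other genes, the central 95% of r with Peg12 ran from -0.448 to 0.451 and with Ube3a from -0.646 to 0.719. The highest of so many r are high in any case, and few of these genes lie in the cluster. Nothing is therefore read from the following list. The genes most like each member over the 37 embryos lay outside the cluster. They were Lrrc4 (r = 0.809), Sfrp2 (0.767) and Sept3 (0.731) for Peg12, Alyref2 (0.794), Psmd8 (0.767) and Ccdc91 (0.765) for Ndn, and Fzd9 (0.674), Xkr5 (0.654) and Dnhd1 (0.623) for Magel2. For Mkrn3 they were Sycp3 (0.798), Fpgt (0.792) and Matn3 (0.77), for Snrpn Atp6v1f (0.732), Snhg15 (0.709) and Pcmt1 (0.698), and for Ube3a Rock1 (0.926), Ptbp3 (0.926) and Bmt2 (0.911).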

How the data were processed

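According to the methods and the submitters' processing notes, the authors trimmed single-end reads with Trim Galore 0.4.4, mapped them to GRCm38 with HISAT2 2.0.5 and quantified genes in SeqMonk. The deposited table holds their raw gene counts, whole numbers without normalisation. Rows that repeated an identifier (49) were dropped, leaving 35542 genes. A deposited table of log2 values of other genes and a table of the authors' own fold changes and p-values were not used. Members and gene lists were chosen with earlier results of these data known.

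Counts were tested with edgeR 4.0.16 (quasi-likelihood, R 4.3.3), with TMM scaling and low genes removed by filterByExpr at 10 counts, two-sided, with Benjamini-Hochberg adjustment over all genes tested and a threshold of 0.05. The 6 members passed the filter. Genotype and sex were fitted on 37 embryos with stage, sex and genotype, slopes on the embryos of one genotype with somite number and sex, and their difference as an interaction. Log2 CPM used a prior count of 2. Correlations were tested by 100000 permutations of embryos within groups, two-sided. RPKM used merged GENCODE M21 exons, and promoters are RefSeq, matched by symbol for all 6 members. The genes named are the members, other transcripts of the region, the 3 most correlated genes of each member and up to 4 genes of each other list with the greatest change. Some results for flanking genes are not reported here. Scripts were tested on simulated counts. Alternatives were RLE size factors, no filter, DESeq2 1.42.0, other covariates and sets of embryos, and leaving out each embryo.

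Each library is a separate embryo, and no libraries of a group agreed within sampling noise (chi-square per degree of freedom 5.12 to 72.3). Same-numbered embryos of the genotypes mostly did not deviate together (r over 0.1 in 4 of 16 pairs, range -0.292 to 0.651), so the numbers were not taken as pairs. The exceptions were both pairs at 9 somites (0.651 and 0.402), replicate 3 at 10 somites (0.347) and replicate 2 at 8 somites (0.171). Whether those embryos shared a batch was not tested. At 8, 9 and 11 somites there were 2 Smchd1matΔ embryos, whose deviations from their group mean mirror each other. The pairs within such a stage are therefore not independent. Depth was 0.916 to 80.6 times 1e6 counts, and reads carry no molecular identifiers.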

Additional observations from a re-analysis of the deposited data

Results flagged for a closer look

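In the 24 sets of 4 embryos formed by a member, a genotype and a stage, 1 value lay far from the other 3 by Dixon's test, and chance alone gives about 1 in 20. It was Magel2 in the Smchd1wt replicate 3 at 7 somites, at 7.37 CPM against 4.37, 3.95 and 4.25 CPM in the other embryos of that group. No explanation was tested.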

How the results depend on the processing

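Peg12 was 0.45 to 0.51 higher on the log2 scale in Smchd1matΔ embryos in all 46 alternatives run for the genotype fit, and Ndn 0.19 to 0.24. Since the members were chosen on this contrast, the following count describes the settings and nothing is read from it. The number of members past the genotype threshold went from 1 to 0 in female embryos alone (Peg12 0.45, fewer embryos) and with a replicate block of stage by replicate number (Peg12 0.47, fewer residual degrees of freedom). The block changed no other count of calls. In Smchd1matΔ embryos the number of members with a slope past the threshold went from 1 to 2 with DESeq2 (which calls 1121 genes against 478) and with no sex covariate (651 genes), to 0 in female embryos alone (188 genes) and to 0 with marker levels as covariates (19 genes). In Smchd1wt embryos it went from 2 to 0 with marker levels as covariates (2 genes against 1036). Leaving out single embryos gave 1 to 2 in Smchd1wt and 0 to 1 in Smchd1matΔ embryos. No member passed for sex or slope difference, and no pair for correlation, in any alternative run.

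Signs also turned, in no case for a value past the threshold, and the cause was not tested. Sex differences (log2) turned for Ndn with no filter (-0.001), without the ribosomal RNA-rich libraries (-0.002) and with the replicate block (-0.122), and with that block for Magel2 (0.128), Mkrn3 (-0.032), Snrpn (-0.122) and Ube3a (0.059). Without single embryos they ran from -0.042 to 0.021 (Ndn), -0.148 to 0.007 (Magel2) and -0.039 to 0.083 (Mkrn3). Slopes (log2 per somite) turned for Ndn in Smchd1matΔ embryos without the shallowest library (0.006) or with marker levels (0.032), and with marker levels for Mkrn3 in Smchd1matΔ (0.082 to -0.033) and Ube3a in Smchd1wt embryos (-0.034). Without single embryos they ran from -0.023 to 0.006 (Ndn, Smchd1matΔ), -0.055 to 0.023 (Mkrn3, Smchd1wt) and -0.004 to 0.021 (Ube3a, Smchd1wt).

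Correlations turned for Magel2 with Snrpn under RLE size factors and no filter (-0.014 in both). In Smchd1wt embryos alone they turned for Peg12 with Mkrn3 (-0.145) and Ndn with Snrpn (-0.136). In Smchd1matΔ embryos alone they turned for Peg12 with Ndn (-0.301), and for Magel2 with Mkrn3 (-0.264), Snrpn (-0.155) and Ube3a (-0.089) and Mkrn3 with Snrpn (-0.085). Peg12 with Mkrn3 was -0.008 without the ribosomal RNA-rich libraries, and Magel2 with Mkrn3 -0.066 without the shallowest libraries. With sex, depth and marker levels removed, Peg12 with Mkrn3 was -0.276 and with Ube3a -0.094. Without single embryos r ran from -0.136 to 0.197 (Magel2 with Mkrn3), -0.052 to 0.110 (Magel2 with Snrpn), -0.042 to 0.194 (Ndn with Magel2), -0.052 to 0.189 (Peg12 with Mkrn3), -0.070 to 0.179 (Peg12 with Ndn), -0.053 to 0.284 (Peg12 with Ube3a) and -0.217 to 0.000 (Snrpn with Ube3a).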
